A study of Saccharomyces cerevisiae with 112 samples.

Results

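The first 5 min of a glucose withdrawal were examined in 4 chase libraries of budding yeast, 2 taken at 5 min without glucose and 2 taken at 5 min with glucose, out of 112 samples in the series. Files of 40 samples were available, and the others were not analysed here. The chase is a SLAM-seq experiment, in which RNA made while cells hold the uracil analogue 4-thiouracil (4TU) is later recognised by T-to-C conversions in its reads. The libraries were made with a kit that reads the 3' ends of transcripts, so that 1 read stands for 1 end and most features are short windows at the ends of genes. All 28 chase libraries came from strain KWY165, per the labels, and their titles put them in a course with glucose or without it at 0, 5, 10, 15, 20, 30 or 45 min, with 2 libraries in each of these 14 groups. The labels name no further genotype, medium or sugar, and they do not say how long before the 0 min sample the glucose was removed. No source says that the 2 libraries of a group came from separate cultures, and the p-values below cover just the spread of these libraries.

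Glucose is the preferred carbon source of budding yeast. While it is present, the kinase pathway that runs through Ras and protein kinase A favours the making of ribosomes, and repressors such as Mig1 keep genes for other carbon sources off. When glucose goes away, the regulators Msn2, Msn4 and Hsf1 turn on stress and chaperone genes, the Snf1 kinase lifts the repression, and transcription of ribosome genes drops.

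The 4 libraries at 5 min held 5043815 to 8242020 yeast reads, and the 28 chase libraries held 2710630 to 10591665. Read counts were tested with edgeR's quasi-likelihood test in a single fit of the 28 libraries, with Benjamini-Hochberg adjustment over the 5525 features tested and a threshold of 0.05. Log2 differences are given as without minus with glucose, so a positive value is a higher relative level without glucose. CPM are reads of a feature per 1e6 yeast reads after edgeR's TMM scaling of the library sizes. Over the features tested they summed to 915234 to 1020199 in the 8 libraries at 0 and 5 min. Log2 differences and CPM are relative to the other mRNAs of a library. In bulk samples fewer cells with an mRNA and less of it per cell cannot be told apart. The labels give no mating type. In the 8 libraries at 0 and 5 min the mating genes of a cells summed to 1062 to 1608 CPM and those found of alpha cells to 15.6 to 20.5 CPM.

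At 5 min 450 features, 8.14% of those tested, were higher without glucose and 301, 5.45%, were lower. The rises were the larger changes: 144 of them reached a log2 difference of 1 and 22 a difference of 2, against 34 falls that reached 1. The rises had a median of 30.2 CPM with and 57.2 CPM without glucose and the falls 173 CPM with and 114 CPM without it, against 49.0 and 50.9 CPM over all features. The total of 751 (13.6%) depended on single libraries: it was 437 without replicate 1 with glucose, 309 without replicate 2 with glucose and 290 without replicate 1 without glucose. Scaling by library totals gave 642 higher and 166 lower, and spike-in scaling 193 higher and 50 lower. Yeast reads per spike-in read at 5 min were 70.4 and 74.9 with glucose and 71.6 and 64.1 without it. The libraries at 0 min, used for changes from 0 min, lay further apart, at 72.1 and 105.7 with glucose and 91.0 and 80.2 without it.

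Part of the difference was already there at 0 min. At that time 6 features (0.109%) were higher and 22 (0.398%) lower without glucose by the same test. The largest was ZRT1 (YGL255W), which encodes the high-affinity zinc transporter of the plasma membrane, at a log2 difference of 3.26 ± 0.219 (SE, n = 2 per group). Its partners ZRT2 (the low-affinity zinc transporter, 1.53), ZAP1 (the zinc-responsive activator, 1.35) and ZPS1 (1.57) were higher as well, as were MMO1 (1.41) and YGL088W (0.79). Among the 22 lower ones were the hexose transporter gene HXT2 (-1.24), the repressor gene MIG2 (-1.14), the kinase gene SKS1 (-1.54) and SUT1 (-1.34), for a transcription factor of sterol uptake. The carbonic anhydrase gene NCE103 stood at -2.50, the peroxisomal citrate synthase gene CIT2 at -1.53 and RCK1, which encodes a protein kinase, at -3.04. The total of 28 at 0 min (0.507%) was 15 without replicate 2 without glucose, 17 without replicate 1 without glucose and 16 without replicate 1 with glucose.

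Of the 450 features higher at 5 min, 6 were called higher and 3 lower at 0 min, and 12 of the 301 lower ones were called lower at 0 min. Below the threshold the lean was broader. Of the 450, 347 already had a positive difference at 0 min, and the median of all 450 was 0.16. Of all 5525 features 2817 had a positive difference at that time. Of the 301, 244 had a negative one, and the median of all 301 was -0.13. The 0 and 5 min comparisons use different libraries, but samples of 1 course may come from 1 culture. The change of the difference between 0 and 5 min was therefore tested in the same fit, and 99 features (1.79%) moved up and 8 (0.145%) moved down. This test is the less sensitive one: in simulated data it recovered 67% of log2 changes of 1, and the 5 min test 95%. The median change was 0.61 over the 450, beside 0.80 at 5 min, and -0.47 over the 301, beside -0.58. Both sets were picked by their 5 min values, so these medians lean the same way. The total of 107 (1.94%) was 56 without replicate 2 at 0 min without glucose, 59 without replicate 1 at 0 min with glucose, 67 without replicate 1 at 5 min without glucose and 69 without replicate 1 at 5 min with glucose.

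**Figure D1:**
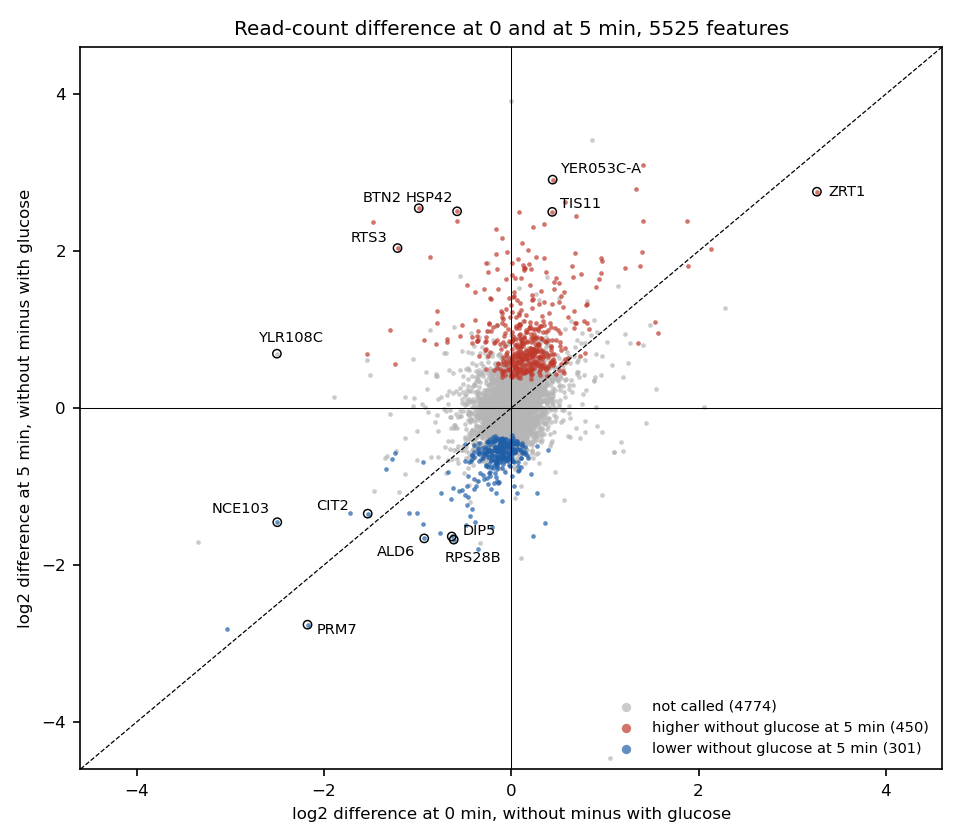
Log2 difference (without minus with glucose) of each of the 5525 features at 0 min (horizontal) and 5 min (vertical), with features called at 5 min in red (450 higher) and blue (301 lower), and equal values on the dashed line. Most called features lie near 0 at 0 min, while ZRT1, PRM7, CIT2 and NCE103 lie far from 0 at both times.

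Among the named rises were 2 protein-folding genes. HSP42 (YDR171W, chromosome IV, 807499 to 808032 by the coordinates of the files, for which no source used here gives a build) encodes a small heat shock protein that gathers misfolded proteins. It had 19.7 and 22.2 CPM with glucose and 124 and 114 CPM without it at 5 min. At 0 min the values were 42.5 and 30.3 CPM with glucose and 27.6 and 22 CPM without it. Both libraries at 5 min without glucose thus lay above the other 6, at a log2 difference of 2.51 ± 0.210 (adjusted p = 1.41e-08, edgeR), against -0.58 at 0 min. BTN2 (YGR142W), whose product works with Hsp42 in sorting misfolded proteins, went from 26.8 and 19.8 CPM at 0 min to 144 and 134 CPM at 5 min without glucose. With glucose it had 58.5 and 31.5 CPM at 0 min and 17.1 and 30.8 CPM at 5 min. The difference at 5 min was 2.55 ± 0.392 (adjusted p = 0.000164, edgeR), and its change from 0 min, 3.53, was the largest among the named genes.

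Several of the other large rises encode stress or mitochondrial proteins that cells make when growth slows. TMA10 (YLR327C), for a small ribosome-associated protein, had 22.3 and 34.6 CPM with glucose and 141 and 112 CPM without it at 5 min, where the 4 libraries at 0 min had 21 to 25.7 CPM. Its paralogue STF2 (YGR008C), tied to the mitochondrial ATP synthase, had 16.8 and 18.6 CPM with and 87.0 and 88.2 CPM without glucose. The cytochrome c isoform gene CYC7 (YEL039C) had 21.5 and 18.9 CPM with and 106 and 67.7 CPM without glucose. Named genes were chosen for conditions that do not overlap at 5 min, which 2964 of the 5525 features met. The log2 differences of these genes were 2.16 ± 0.202, 2.31 ± 0.174 and 2.10 ± 0.173. SUE1, needed for the breakdown of unstable cytochrome c, stood at 2.50, ROQ1, a regulator of the ubiquitin ligase Ubr1, at 2.39, RTS3, a putative phosphatase subunit, at 2.04 and EMI2, a paralogue of glucokinase, at 2.02. Each of these 7 genes also passed the test for a change of the difference from 0 min, with a log2 change of 1.83 to 3.25.

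Within the courses, these genes rose without glucose, while their smaller changes with it did not pass the test. From 0 to 5 min without glucose RTS3 rose by 3.20 on the log2 scale, ROQ1 by 2.65, BTN2 by 2.59, TMA10 by 2.53, HSP42 by 2.27, STF2 by 1.90, EMI2 by 1.65, SUE1 by 1.63 and CYC7 by 1.51. With glucose none of these 9 genes passed the test over the same 5 min, and their values ran from -0.94 (BTN2) to 0.27 (TMA10). A missing call there does not show that a gene stayed level. The comparisons within a course share libraries with that between the courses and were added after the data were seen. Over all features they found 118 (2.14%) higher and 12 (0.217%) lower at 5 than at 0 min without glucose, and 10 (0.181%) higher and 11 (0.199%) lower with glucose. The first of these counts moved with single libraries: its total of 130 (2.35%) became 58 without replicate 2 at 0 min, 68 without replicate 1 at 5 min and 198 without replicate 2 at 5 min.

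A different course lay behind TIS11 (YLR136C) and YER053C-A, an uncharacterised gene with the largest value among the named rises. TIS11 encodes an RNA-binding protein that promotes the decay of mRNAs for iron-using proteins when iron is short. It had 54.0 and 29.3 CPM at 0 min and 43.0 and 42.8 CPM at 5 min without glucose, but 38.4 and 21 CPM at 0 min and 7.18 and 8 CPM at 5 min with glucose. Its log2 difference of 2.50 ± 0.392 at 5 min (adjusted p = 0.00017, edgeR) thus stood beside a fall with glucose of -2.0 (adjusted p = 0.0163, edgeR) and a value of 0.06 without it. YER053C-A, at 2.91 ± 0.271, fell by 1.38 on the log2 scale with glucose and rose by 1.09 without it. The third pattern was that of ZRT1, whose difference of 2.76 ± 0.213 at 5 min was no larger than that at 0 min. ZRT1 had 742 and 920 CPM at 0 min and 920 and 894 CPM at 5 min without glucose, against 76.8 and 96.7 and then 133 and 135 CPM with it.

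**Figure D2:**
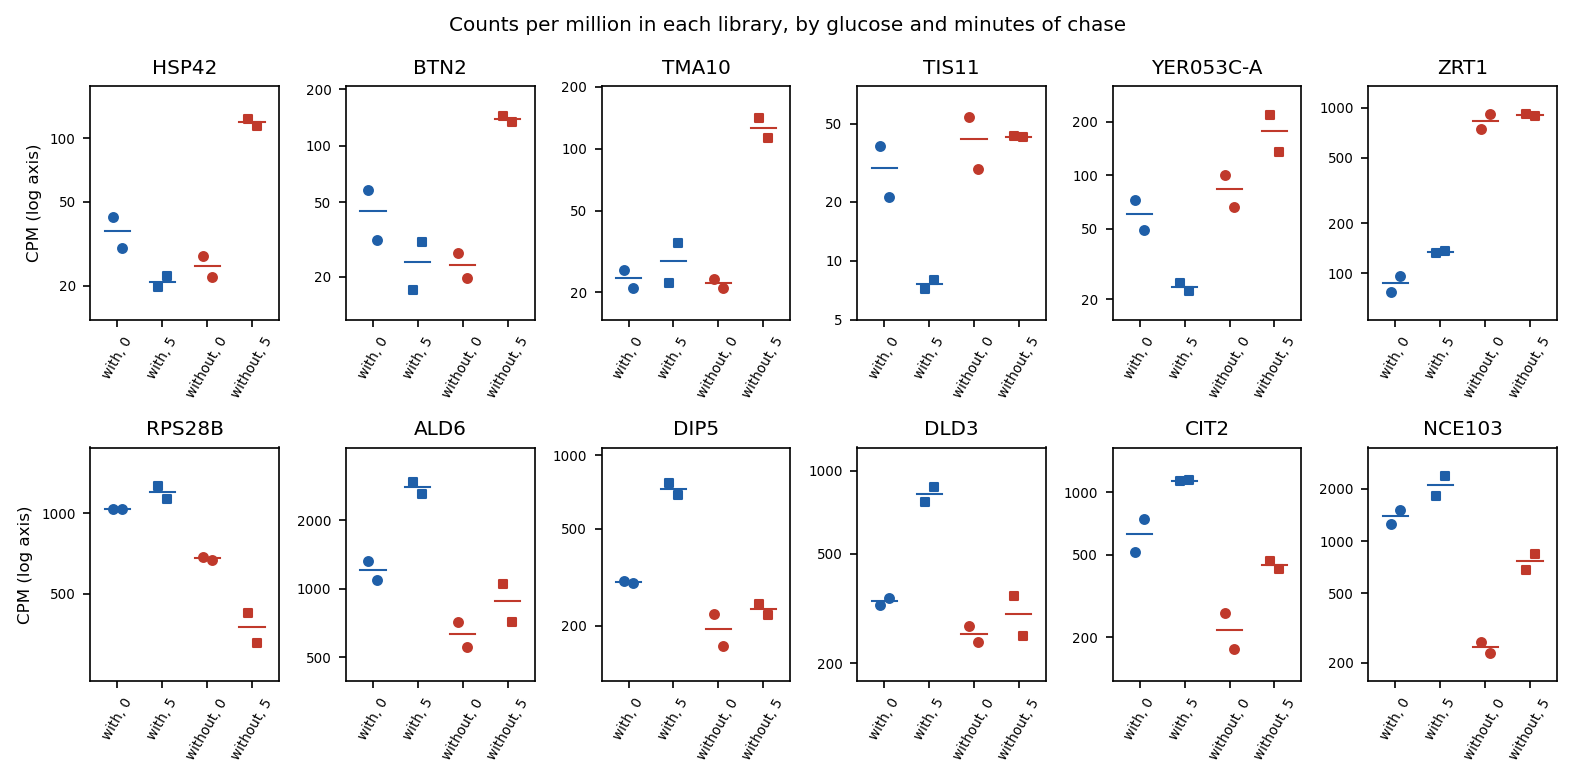
CPM (log axis) of 12 genes in each of the 8 libraries at 0 min (circles) and 5 min (squares), with glucose (blue) and without it (red), and the mean of each pair as a line. HSP42, BTN2 and TMA10 move mainly in the libraries without glucose, and TIS11, ALD6, DIP5 and DLD3 mainly in those with glucose. At 0 min the conditions already lie apart for ZRT1, NCE103, ALD6, DIP5 and others.

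The largest falls among the named genes were PRM7, RPS28B, ALD6 and DIP5. RPS28B (YLR264W), for a protein of the small ribosomal subunit, had 1269 and 1132 CPM with glucose and 425 and 326 CPM without it at 5 min. At 0 min it had 1041 and 1036 CPM with and 688 and 669 CPM without glucose, so the conditions did not overlap at either time. Its log2 difference was -1.68 ± 0.151 at 5 min (adjusted p = 4.21e-08, edgeR) and -0.61 at 0 min, where it did not pass the test (adjusted p = 0.0601, edgeR). Within 5 min without glucose RPS28B dropped by 0.85 on the log2 scale (adjusted p = 0.000683, edgeR), and with glucose it stood at 0.21. It was the named fall with the largest change of the difference, at -1.06.

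ALD6 (YPL061W), for the cytosolic acetaldehyde dehydrogenase, showed the reverse arrangement. It went from 1321 and 1089 CPM to 2964 and 2625 CPM with glucose, and from 713 and 554 CPM to 1050 and 717 CPM without it. ALD6 was low at both times, at -0.93 at 0 min, where it did not pass (adjusted p = 0.174, edgeR), and at -1.66 ± 0.266 at 5 min, and the change did not pass (adjusted p = 0.461, edgeR). From 0 to 5 min it had a rise of 1.21 in glucose (adjusted p = 0.0379, edgeR) and a value of 0.48 without glucose. DIP5 (YPL265W), for the permease of glutamate and aspartate, went from 304 and 298 CPM to 766 and 688 CPM with glucose and from 223 and 166 CPM to 246 and 221 CPM without it. Its difference was -0.64 at 0 min, where it did not pass, and -1.64 ± 0.183 at 5 min, beside a rise of 1.27 in glucose (adjusted p = 0.000276, edgeR). GIP3, for a partner of the phosphatase Glc7, and DLD3, for a cytosolic dehydrogenase, rose with glucose too, by 1.17 and 1.3, and stood at 0.16 and 0.24 without it. These rises are relative to the other mRNAs. With spike-in scaling 0 features passed as higher from 0 to 5 min with glucose and 36 as lower, so none of these rises passed there. CIT2 rose in both courses, by 0.86 with and 1.04 without glucose, and kept the difference it had at 0 min.

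Further falls among the 12 were PRM7 (-2.76), the pyruvate carboxylase gene PYC1 (-1.59), NCE103 (-1.45), PDH1 (-1.38), which is involved in propionate metabolism, and the phosphate transporter gene PHO84 (-1.34). PRM7, NCE103 and PHO84 had passed the test at 0 min already, as had CIT2. NCE103 rose by 1.64 within 5 min without glucose, from 262 and 228 CPM to 683 and 844 CPM, so that its distance from the course with glucose, at 1826 and 2361 CPM, was smaller at 5 min than at 0 min. The change of that distance did not pass the test (adjusted p = 0.253, edgeR). PYC1 lost its call without replicate 2 with glucose at 5 min (adjusted p = 0.0536, edgeR). Relative to glucose 8 features moved down from 0 to 5 min. The count was 2 without replicate 1 at 5 min with glucose or replicate 1 at 0 min without glucose, 3 without replicate 1 at 0 min or replicate 2 at 5 min with glucose, 4 without replicate 1 at 5 min without glucose and 5 without replicate 2 at 0 min without glucose. The 8 included RPS28B, DIP5 and RPS27A, the vacuolar iron transporter gene CCC1 (-0.92), AIR1 (-1.04), for an RNA-binding subunit of the TRAMP complex, and NOG2 (-0.86), for a GTPase of large-subunit assembly. None of the 8 passed with spike-in scaling in edgeR, where 66 features moved up and 0 moved down, while DESeq2 put 24 down and the unadjusted p was under 0.05 for 635 features in either direction with TMM.

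Chaperone and folding genes, most of them under Hsf1, were higher at 5 min in 14 of 33 members tested, read against 8.14% of all features, and lower in 0. Their median log2 difference was 0.28, against 0.0034 for all features. At 0 min the median was -0.23 with no member called, and 11 members passed the test for a change of the difference, read against 1.79%. CUR1, a paralogue of BTN2, stood at 1.57, the co-chaperone gene APJ1 at 1.48, HSP30, for a membrane heat shock protein, at 1.69, OPI10, for a nuclear import factor of Hsp70, at 1.21 and the disaggregase gene HSP104 at 1.06. The list did not move as one. HSP26 stood at 0.17 and SSA4, an inducible Hsp70 gene, at 0.28, and neither passed, although both stood higher at 30 min (3.78 and 3.37). From 0 to 5 min the median of the list was 0.32 without and -0.27 with glucose. By the test 5 members rose without glucose, read against 2.14% of all features, and HSP82 and HSP78 fell with it, read against 0.199%.

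General stress genes, many of them under Msn2 and Msn4, were higher in 17 of 38 members and lower in 0, at a median of 0.58 against 0.12 at 0 min. After STF2 and TMA10 the largest values were 1.82 for PNC1, a nicotinamidase, and 1.78 for RGI1, a regulator of energy metabolism, while HSP12 stood at 0.89. The regulator MSN4 (YKL062W) itself went from 27.2 and 26.2 CPM with glucose to 71.1 and 59.5 CPM without it, at a log2 difference of 1.29 ± 0.176 (adjusted p = 1.53e-05, edgeR). Of the 48 regulators of stress and carbon use 9 were higher and 4 lower, where 8.14% and 5.45% of all features were, at a median of 0.14. The lower count is thus near the background. The rises included HAP4, the activator of respiratory genes (1.08), MTH1, a repressor of hexose transporters (1.24), MGA1 (1.74) and TYE7, an activator of glycolytic genes (0.88). The falls were PHD1 (-1.33), SUT1 (-0.78), RPH1 (-0.66) and TPK3 (-0.51), of which the first 2 were lower at 0 min as well. MIG1 (0.09), CAT8 (0.59) and ADR1 (-0.69) did not pass.

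Glycogen and trehalose genes were higher in 9 of 22 members and lower in 0, at a median of 0.45. This and the other counts of higher members in this paragraph stand against 8.14% of all features. GLC3 (YEL011W), the branching enzyme, had 8.54 and 7.71 CPM with glucose and 32.2 and 32.5 CPM without it, and TPS1, the trehalose-phosphate synthase, stood at 1.01. Genes of hexose transport and phosphorylation were higher in 6 of 18 and lower in 1, the transporter HXT2. HXK1 (YFR053C), the hexokinase used when glucose is scarce, had 22.2 and 24.9 CPM with and 106 and 70.2 CPM without glucose, at a log2 difference of 1.90 ± 0.197. The high-affinity transporter genes HXT6 (1.77) and HXT7 (1.38) are near-identical copies, so how reads divide between them is uncertain. Of 28 genes of autophagy and the vacuole 10 were higher and 0 lower, at a median of 0.39, among them ATG8 (1.16), whose product is built into autophagosome membranes, and the vacuolar peptidase gene APE1 (1.05).

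Few genes that serve growth on other carbon sources were called at 5 min. Of the 36 glucose-repressed genes 1 was higher, against 8.14% of all features, the malate dehydrogenase gene MDH2 (1.38), and 2 were lower, CIT2 and ATO3, at a median of 0.05. Their median at 0 min was -0.10, and from 0 to 5 min it was 0.27 without and 0.01 with glucose. In each course 1 member rose, where 2.14% of all features rose without and 0.181% with glucose. The lactate transporter gene JEN1 had 7.18 and 9.6 CPM with and 11.6 and 7.44 CPM without glucose, and the conditions overlapped. At 10 min 15 of the list were higher and 1 lower, where 22.3% of all features were higher and 18.2% lower. At 30 min 31 were higher and 1 lower, where 38.3% of all features were higher. Glycolytic genes were higher in 3 of 24 (ENO1, PYK2 and PFK1) and lower in 1 (ALD6). Their median of 0.22 turned to -0.02 without replicate 1 without glucose. Respiratory chain subunits and those of the ATP synthase were higher in 18 of 42 and lower in 0, at a median of 0.35. That median was 0.26 at 0 min, and 2 members, CYC7 and NDI1, the NADH dehydrogenase gene, passed the test for a change. TCA cycle genes were higher in 4 of 19 (KGD2, MPC3, LSC2 and MDH1) and lower in 1 (PYC1).

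**Figure D3:**
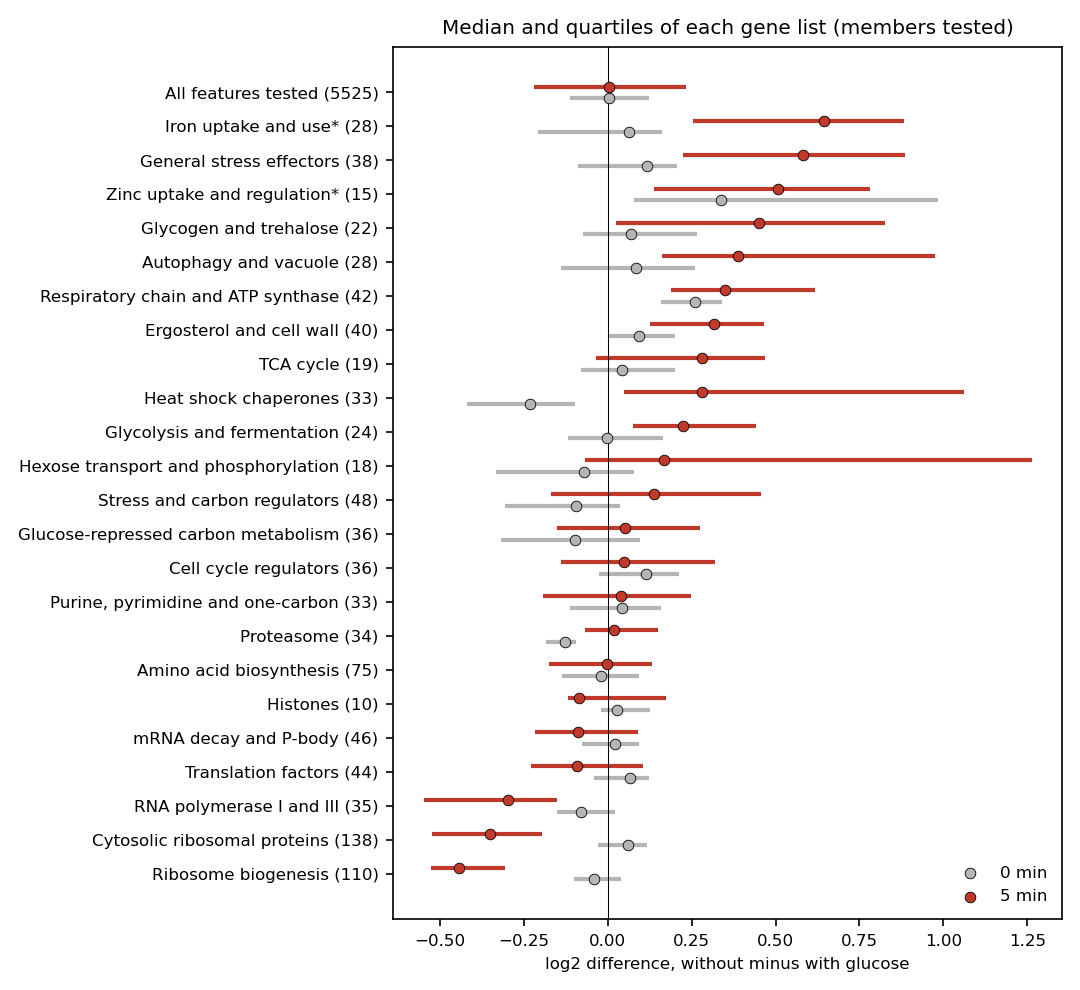
Median (point) and quartiles (bar) of the log2 difference, without minus with glucose, over the tested members of each gene list at 0 min (grey) and 5 min (red), ordered by the 5 min median, with all features on top. Lists marked with an asterisk were added after their members' values had been seen, and the ribosome biogenesis list has the lowest 5 min median, at -0.44.

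Some ribosome genes were lower, most by less than 1 on the log2 scale. Ribosome biogenesis genes, which act on pre-ribosomes in the nucleolus, were lower in 23 of 110 members, read against 5.45% of all features, and higher in 0. Their median was -0.44 at 5 min and -0.04 at 0 min. ALB1, for a shuttling factor of the large subunit, stood at -1.08 and SNU13, for a snoRNA-binding protein, at -0.93. Cytosolic ribosomal protein genes were lower in 47 of 138 and higher in 0, at a median of -0.35 against 0.06 at 0 min. After RPS28B the lowest were RPL39 at -0.87, RPS19A at -0.79, and RPL35B and RPL14B at -0.76, and the division of reads between the copies of such pairs is uncertain. RPL14B (YHL001W) had 1097 and 1142 CPM with glucose and 693 and 633 CPM without it. Subunits and factors of RNA polymerases I and III were lower in 10 of 35 and higher in 0, at a median of -0.30, with RRN3, the initiation factor of RNA polymerase I, at -0.93 and the subunit gene RPA12 at -0.82.

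These falls split between the courses. From 0 to 5 min the median of ribosomal protein genes was -0.21 without and 0.18 with glucose, and that of ribosome biogenesis genes -0.15 without and 0.25 with glucose. By the test 4 ribosomal protein genes fell without glucose, read against 0.217%, and no biogenesis gene did (edgeR). Translation factors at 5 min were lower in 4 of 44, near the share of 5.45% over all features, and higher in 0. The lower ones were led by SUI1 (-1.14), the initiation factor eIF1, and CAF20 (-0.69), a cap-binding regulator. Scaling by library totals moved the median of the translation factors from -0.09 to 0.0039.

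The counts of these lists depended on the scaling and on single libraries. Under spike-in scaling 193 of all 5525 features were higher and 50 lower. There 2 of 138 ribosomal protein, 2 of 110 biogenesis and 2 of 35 polymerase genes were lower. The first 2 of these counts are near the background of that fit. In it 13 chaperone, 10 general stress, 6 glycogen, 7 autophagy, 4 respiratory and 0 TCA genes were higher. In the fits without a library the totals over all features moved too, so list counts are not given for them. Fewer members of each of these lists were called without replicate 1 without glucose, without replicate 1 with glucose or without replicate 2 with glucose. With 1 library at 5 min left out, the medians were -0.25 to -0.44 for ribosomal protein and -0.30 to -0.60 for biogenesis genes. They were -0.28 to -0.41 for polymerase, 0.17 to 0.51 for chaperone and 0.46 to 0.71 for general stress genes. For glycogen genes they were 0.29 to 0.58 and for autophagy genes 0.37 to 0.48. Respiratory genes had medians of 0.35 to 0.38 and TCA genes of 0.09 to 0.37. The medians of the lists in this paragraph kept their sign in each of these fits.

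Among 46 genes of mRNA decay and P-bodies 4 were higher and 3 lower, both near the shares over all features of 8.14% and 5.45%, against which the other counts of this paragraph also stand. TIS11 and its paralogue CTH1 (0.93), the decapping activator gene EDC2 (1.48) and the scavenger enzyme gene DCS1 (0.68) were higher, and the Lsm ring genes LSM1, LSM5 and LSM6 lower (-0.39 to -0.45). Scaling by library totals moved the list median from -0.09 to 0.01. Amino acid biosynthesis genes were higher in 4 and lower in 8 of 75, and LEU2, a gene of leucine synthesis, stood at 0.85. Cell cycle regulators were higher in 4 of 36 and lower in 0. WHI5 (YOR083W), the inhibitor of the G1 to S transition, had 2.48 and 4.51 CPM with glucose and 13.4 and 12.7 CPM without it, at a log2 difference of 1.92 ± 0.257. FAR1, a further inhibitor of the cell cycle, stood at 0.69. Ergosterol and cell wall genes were higher in 13 of 40 and lower in 0, led by ERG5 (1.43). With spike-in scaling, where 193 of all 5525 features were higher, the count was 2. Fewer members were also called without replicate 1 or 2 with glucose or without replicate 1 without glucose. With 1 library at 5 min left out the list median was 0.22 to 0.37, beside 0.32 with all of them. Genes of purine, pyrimidine and one-carbon metabolism were higher in 4 of 33 and lower in 2, with the glycine cleavage gene GCV1 at 1.09. Of 34 proteasome genes 1 was higher, PRE2 (0.40), and 0 of 10 histone genes were called in either direction.

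Most of the early calls were still there later in the chase, where other libraries give the comparison. Of the 450 features higher at 5 min, 403 (89.6%) were higher at 10 min, where 22.3% of all features were higher. At 30 min 402 (89.3%) of the 450 were higher and 16 lower, where 38.3% of all features were higher. Of the 301 lower ones, 248 (82.4%) were lower at 30 min, where 34.7% of all features were lower and 22 of the 301 higher. Conversely 19% of the 2117 features higher at 30 min and 12.9% of the 1918 lower ones had been called the same way at 5 min. Of all features 8.14% were called higher and 5.45% lower at 5 min. The median log2 difference of the 450 went from 0.80 at 5 min to 1.18 at 10 min and 2.05 at 30 min, and that of the 301 from -0.58 to -0.74 and -1.61.

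The named genes separated in the later samples. TMA10 went on to 4.79 at 10 min and 7.66 at 30 min, HSP42 to 4.6 and 5.70, and RPS28B to -2.62 and -4.22. TIS11 stood at 2.09 and 1.39 and ZRT1 at 2.57 and 1.73, so neither went beyond its 5 min value. Several of the early falls turned: CIT2 stood at 0.21 at 10 min and 1.46 at 30 min, NCE103 at -0.18 and 1.22 and DIP5 at -0.65 and 0.94.

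**Figure D4:**
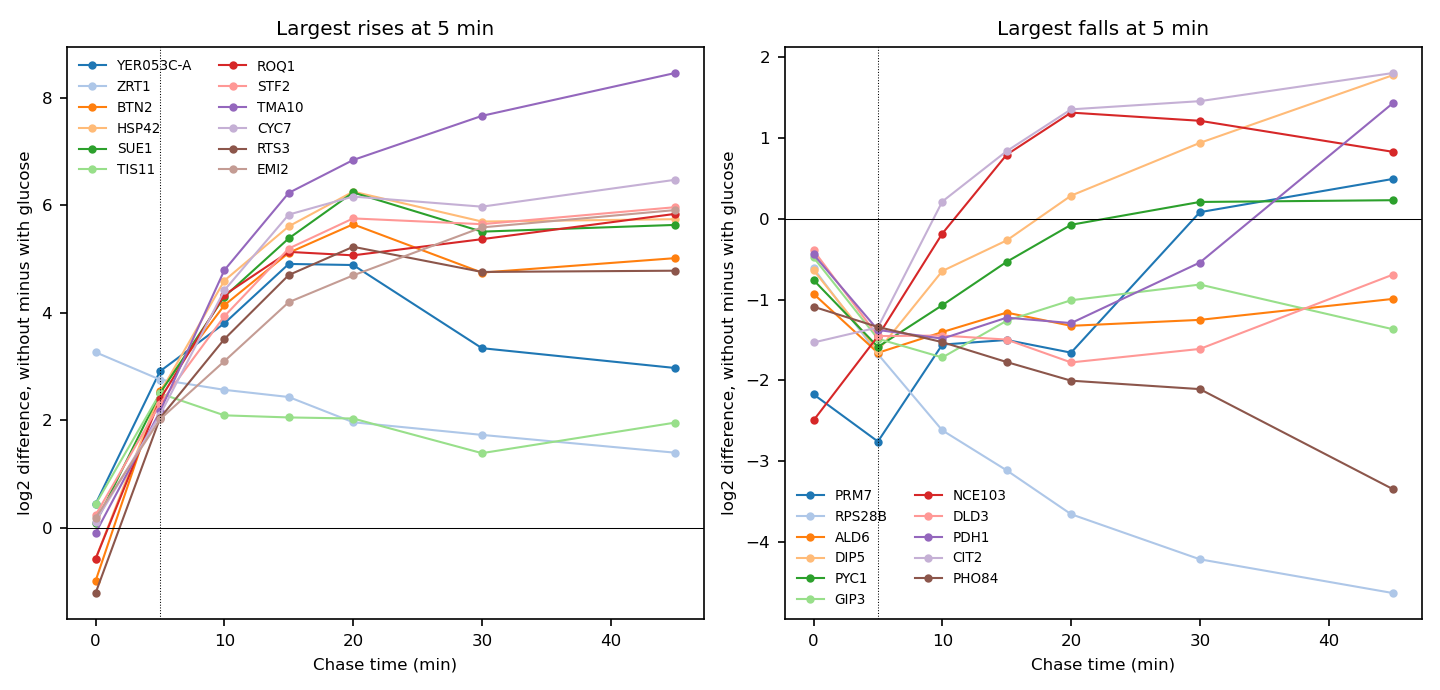
Log2 difference, without minus with glucose, from 0 to 45 min of chase for the largest rises (left) and falls (right) at 5 min that are reported here, with the 5 min time marked by a dotted line. All rises but ZRT1 and TIS11 stand higher at 10 min than at 5 min, and of the falls RPS28B and PHO84 are lower at 45 min than at 5 min while CIT2, NCE103 and DIP5 are above 0.

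The conversions in the reads gave a second readout. With glucose 61.0% and 61.1% of the yeast reads of a library carried label at 0 min and 54.3% and 56.0% at 5 min. Without glucose the shares were 62.6% and 62.3% at 0 min and 63.3% and 62.0% at 5 min, so the fall seen with glucose was not seen without it. The 2 libraries without 4TU that gave the background had 0.0397% and 0.0502% labelled reads. By the median over features the share went from 58.2% and 58.6% to 46.0% and 49.3% with glucose, and from 60.3% and 60.7% to 61.1% and 60.1% without it.

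Gene by gene, the odds of labelled against unlabelled reads at 5 min were higher without glucose in 3979 of 5224 features tested (76.2%) and lower in 1 (0.0191%), at a median log2 difference of 0.73. Without replicate 1 with glucose the count was 2624 and the median 0.62. At 0 min 0 features passed by edgeR, 335 had an unadjusted p under 0.05 and the median was 0.11, and a fit of the 8 libraries at 0 and 5 min called 4. The features higher in abundance had a median of 0.69 for the labelled odds at 5 min, as did the lower ones. The odds were called higher in 283 of 429 of the former and in 249 of 297 of the latter, with reads of the same libraries behind both readouts.

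HSP42 had 54.8% and 48.9% labelled reads without glucose and 47.8% and 39.9% with it. In labelled CPM, the labelled share of its reads times its CPM, it had 68.0 and 55.7 against 9.41 and 8.87. At 0 min without glucose its labelled reads had stood at 14.8 and 10.2 on that scale and its reads at 27.6 and 22 CPM, so labelled and unlabelled reads were both more numerous at 5 min. Its labelled share without glucose was below the median over features. TMA10 went from 9.74 and 8.34 labelled CPM to 80.8 and 60.4 without glucose, at a labelled share of 57.2% and 53.8%. Among the falls RPS28B had 71.2% and 68.7% labelled reads without glucose and 62.8% and 66.3% with it. DIP5 had 59.4% and 57.6% without and 34.3% and 40.3% with glucose, at a log2 difference of the odds of 1.25 ± 0.118 (adjusted p = 4.02e-15, edgeR). In glucose DIP5 gained reads mostly without label, from 158 and 151 labelled CPM at 0 min to 263 and 277 at 5 min, while all its reads went from 304 and 298 to 766 and 688.

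**Figure D5:**
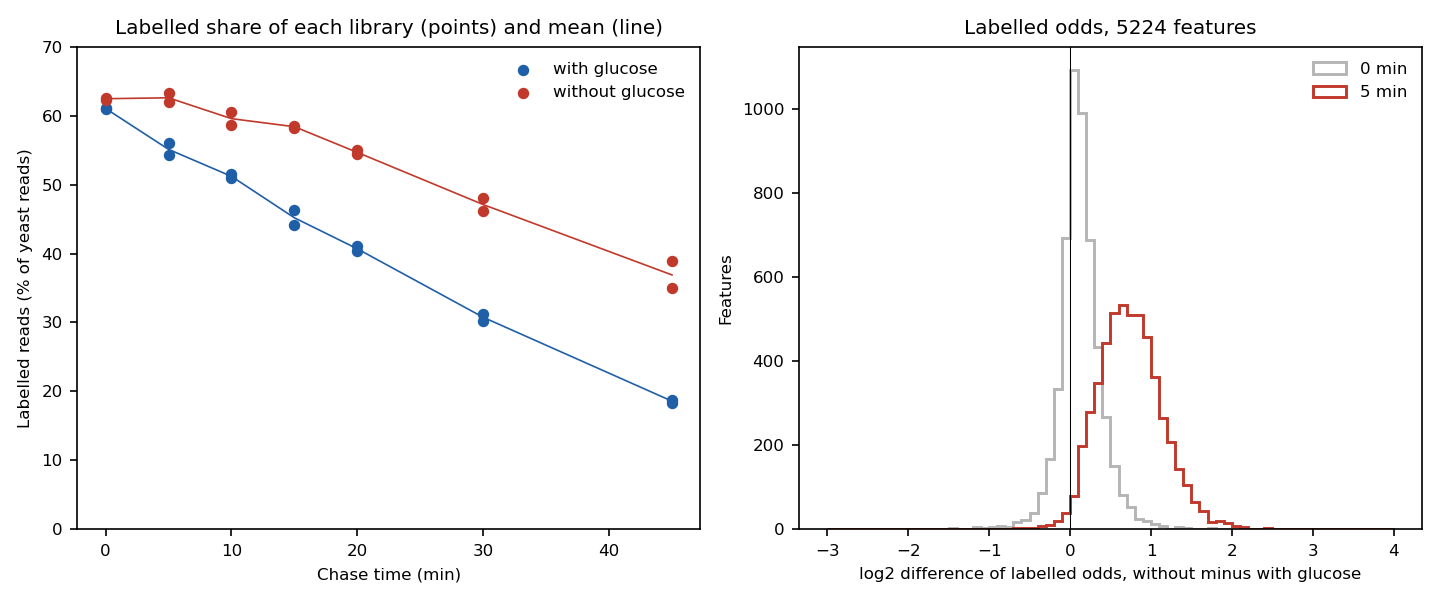
Left, labelled reads as a percentage of yeast reads in each of the 28 chase libraries (points, with the mean of each pair as a line) with glucose (blue) and without it (red). Right, number of features by the log2 difference of the labelled odds, without minus with glucose, at 0 min (grey, median 0.11) and 5 min (red, median 0.73).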

How the data were processed

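The chase was measured as 3' end SLAM-seq reads. The deposited read count, the count of labelled reads and the count of multimapped reads per feature are whole numbers from slamdunk, whose version 0.4.3 stands in the file headers. Per the submitters' processing notes, the tools also included featureCounts, TopHat2, Bowtie and cutadapt, with no role given. No source used here gives the aligner settings, the genome build or how many conversions make a read labelled. The files list 5560 yeast features, of which 5558 matched a locus tag, and 9 spike-in features, of which 6 had reads. Multimapped reads made up 0.456% to 1.10% of reads.

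From these counts, edgeR 4.0.16 in R 4.3.3 was run with TMM factors, its expression filter and the robust quasi-likelihood test, with 14 groups of condition and time sharing 1 estimate of spread and no block. Labelled odds were fitted on each library's labelled and unlabelled reads as a pair of columns, with an intercept per library, for features with a mean of at least 50 reads and 10 labelled reads in sum. Named genes were the 12 largest rises and falls at 5 min and the 5 largest changes of the difference each way, among called features whose libraries did not overlap, with a mean of at least 100 reads and at most 20% multimapped reads, and, from every list, the 2 members ranked first by p. Other genes were named after their values were seen. The comparison, its members and the 23 gene lists were chosen with earlier results of these data known, and 2 lists and the comparisons within a course were added after seeing the values.

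Alternatives were DESeq2 1.42.0, its size factors, library totals, spike-in scaling, no filter, fits of the compared libraries or of 8 libraries, a replicate block, a course block, other read minimums, omission of multimapped features and of each library. The tests were tested on simulated data with known changes before use. Python 3.11.15 with pandas 2.3.3 and matplotlib 3.10.9 made the tables and plots. No sequences were used here, and some items are not reported here.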

Additional observations from a re-analysis of the deposited data

Results flagged for a closer look

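Genes whose difference between the courses changed from 0 to 5 min, by the direct test of that change in edgeR, deserve a closer look, and 107 features passed it over the whole table. The values are the log2 difference (without minus with glucose) at 5 min minus that at 0 min. Among the largest rises it was 3.53 for BTN2, 3.25 for RTS3, 3.08 for HSP42, 2.97 for ROQ1, 2.47 for YER053C-A, 2.42 for SUE1, 2.26 for TMA10, 2.07 for STF2, 2.06 for TIS11, 1.98 for CYC7 and 1.83 for EMI2. YLR108C stood apart: it was at -2.50 at 0 min and 0.69 at 5 min, where it did not pass, and its change was 3.19. It had 8.93 and 9.09 CPM at 0 min and 66.9 and 57.5 CPM at 5 min without glucose, against 45 and 58.1 and then 27.1 and 50.3 CPM with it.

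Members of the gene lists with such a change were the branching enzyme gene GLC3 (2.04), the transporter gene HXT6 (1.93), the hexokinase gene HXK1 (1.84), WHI5 (1.66), the decapping activator gene EDC2 (1.45), the NADH dehydrogenase gene NDI1 (1.37), OPI10 (1.31), the leucine synthesis gene LEU2 (1.22), ATG8 (1.11), the trehalose synthase gene TPS1 (1.04) and the enolase gene ENO1 (1.03). The downward changes were -1.06 for RPS28B, -1.04 for AIR1, -1.0 for DIP5, -0.92 for CCC1 and -0.86 for NOG2, and none of these 5 passed with spike-in scaling (adjusted p = 0.345 to 0.942, edgeR). With each of the 8 libraries left out in turn, DIP5 lost its call in 7 cases, NOG2 in 6 and CCC1 in 5, and NOG2 also lost it with library totals and in the fit of 8 libraries. AIR1 had 15.1% multimapped reads. With 2 libraries per group no single library was set against its group.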

How the results depend on the processing

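Of 506 values of named genes under the alternatives, 480 kept direction and call, 26 lost the call and 0 changed sign. Of the 24 genes named at 5 min, 23 lost no call. At 5 min the count of 751 was 243 with spike-in scaling, and 290 to 833 when a library was left out. The other alternatives gave 599 to 896, with 857 by DESeq2 and 808 with library totals, where the median of all features moved from 0.0034 to 0.10. At 0 min the count of 28 was 48 by DESeq2 and 15 to 22 without a library. For the change of the difference the count of 107 was 66 with spike-in scaling and 56 to 107 without a library. For the labelled odds it was 2624 to 3796 at 5 min without a library, and at 0 min 4 in the fit of 8 libraries and 0 without any library.

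From 0 to 5 min without glucose the count of 130 was 66 with spike-in scaling (50 higher and 16 lower), and 58 to 198 without a library. With glucose the count of 21 was 47 by DESeq2, 42 with library totals (11 higher and 31 lower), 36 with spike-in scaling (0 higher and 36 lower), 37 in the fit of 8 libraries, 36 with a course block and 8 to 15 without a library. It was 8 without replicate 1 at 5 min, 9 without replicate 1 at 0 min and 11 without replicate 2 at 5 min. Spike-in scaling put the median change of all features from 0 to 5 min at -0.31 without and -0.37 with glucose, and other values are relative to such shifts. The cause of these differences was not tested.

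No source used here says that replicate numbers pair the samples. The difference between replicates 1 and 2 correlated across features between the conditions at -0.09 at 5 min and 0.20 at 0 min, and from -0.29 to 0.20 over the 7 times. These values compare the conditions at 1 time, so they cannot show whether samples of 1 course came from 1 culture. With the replicate number as a block the counts were 753 at 5 min, 23 at 0 min, 115 for the change and 4017 and 0 for the labelled odds. Within the courses the replicate block gave 134 and 24. A course block, with a replicate term for each course, gave 896 at 5 min, 27 at 0 min and 131 for the change. Within the courses the course block gave 152 and 36. With 2 libraries per group, small changes can be missed.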

Other observations

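A list of 28 iron genes was added after some of its members' values had been seen, so its counts are a description. At 5 min 15 were higher and 4 lower, where 8.14% and 5.45% of all features were, at a median log2 difference of 0.65, and at 0 min 0 were higher and 1 lower, at a median of 0.06. After TIS11 the largest were CCC2 (1.65), a copper pump needed for iron uptake, HMX1 (1.64), a heme oxygenase, FRE6 (1.25), a metalloreductase, and FRE1 (1.02), a reductase of the plasma membrane. The members that passed from 0 to 5 min lay mainly in the course with glucose, where 6 fell and 1 rose, at a median of -0.42. Of all features 0.199% fell and 0.181% rose in that course. Without glucose 1 member rose and 1 fell, at a median of 0.06, where 2.14% of all features rose and 0.217% fell. HMX1 went from 108 and 90.1 CPM to 43.2 and 42.3 CPM with glucose and from 107 and 84.5 CPM to 140 and 127 CPM without it. SIT1, for a siderophore transporter, fell by 1.5 on the log2 scale with glucose and stood at -0.38 without it. CCC1, which stores iron in the vacuole, rose by 0.94 with glucose and stood at 0.01 without it. By the test with spike-in scaling 0 features rose in the course with glucose. With spike-in scaling 10 of the list were higher and 0 lower at 5 min, where 193 of all 5525 features were higher and 50 lower. The calls moved with single libraries, and with 1 library at 5 min left out the list median was 0.44 to 0.71.

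A list of 15 zinc genes was added after ZRT1, ZRT2, ZAP1 and ZPS1 had been seen to be higher at 0 min, and these are its 4 higher members at that time, where 0.109% of all features were higher. At 5 min 7 were higher and 0 lower, where 8.14% of all features were higher. With spike-in scaling 4 were higher at 5 min, where 193 of all 5525 features were. Fewer members were called with each single library left out, where the list median was 0.39 to 0.51, beside 0.51 with all of them. None passed the test for a change of the difference by edgeR. The ZRT1 difference stood at 1.4 at 45 min.

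Some further transporter genes were chosen after their values were seen. The general amino acid permease gene GAP1 had 128 and 105 CPM with glucose and 391 and 350 CPM without it (log2 1.67). AGP1 (1.47) and the ammonium transporter gene MEP2 (1.02) were higher too. The fatty acid desaturase gene OLE1 stood at 1.52.

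MMO1 was the largest called rise of all at 3.10, but with 55.8 reads per library on average it fell under the read minimum for named genes. It had 2.72 and 1.16 CPM with glucose and 18 and 16.5 CPM without it. In the coordinates of the files it lies on chromosome XI at 356393 to 356963, upstream of PHD1 at 357599 to 358238 on the same strand, and PHD1 stood at -1.33.

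PBI2, for an inhibitor of vacuolar proteases, was the feature with lower labelled odds without glucose at 5 min, at -0.56 (adjusted p = 0.037, edgeR). It had 72.2% and 72.2% labelled reads with glucose and 66.9% and 60.9% without it. No feature was lower without replicate 1 or 2 with glucose or without replicate 2 without glucose, so the call is lost there. At 0 min the odds differed by -0.92 and did not pass.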
